A study of Mus musculus with 6 samples.

Results

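The high-pileup recurrent regions are autosomal stretches of brain RNA with a called m6A peak of high pileup in every replicate. Their members were chosen by the deposited pileup, the highest number of immunoprecipitated (IP) tags over a base. It was counted after duplicate removal, with 1 tag kept per position, so it is not the number of tags sequenced. Peaks overlapping by 1 base or more between the 3 lists were merged, and a region was kept if it lay on an autosome, held a peak of each list and reached 41 tags or more in each. This gave 871 regions, 5.33% of the 16348 autosomal regions found in all 3 lists, out of 43377 merged regions in all. They are set below beside the other 15477 autosomal regions found in all 3 lists.

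The study asks what m6A in messenger RNA does as oligodendrocytes, the cells that wrap axons in myelin, mature. Each of 3 IP libraries, made from polyadenylated RNA of whole mouse brain with an antibody against N6-methyladenosine (m6A), was set against 1 of 3 input libraries made without antibody. All libraries were of 1 tissue and 1 condition, and the labels give no strain, age, genotype or pooling, nor whether the replicates came from separate animals. The run names in the file headers hold the letters ctl, which the labels do not explain. SDs between replicates may therefore be technical. After duplicate removal by the authors m6A IP 1, 2 and 3 kept 5676427, 6493926 and 6327958 of 16764956, 18489297 and 17333767 tags. Their inputs kept 7436658, 11589632 and 7185922 of 21820721, 36372297 and 21529770. The lists carry positions on mm9 and no gene names, and the annotation at hand was on GRCm38. Genes, strands and sequences of these regions are therefore not given, and the tissue could not be checked against its marker genes.

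m6A is a methyl group on an internal adenosine of messenger RNA. It is placed by a methyltransferase complex built around METTL3 and METTL14, can be removed by demethylases, and is read by YTH-domain proteins that influence splicing, translation and decay. It lies mostly in long exons and near stop codons. In m6A-seq, RNA is broken into short fragments before the antibody is added, so a peak marks a segment that holds a methylated site and not the single base. The IP pileup rises with the abundance of a transcript as well as with its methylation, and the input measures abundance alone.

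The members were tall and their heights lay close together. The pileup of members had a median of 46, 46 and 45 tags in m6A IP 1, 2 and 3, with quartiles of 44 and 48, 44 and 49, and 43 and 47. For the other regions the medians were 24, 24 and 22 tags. These heights chose the members, so they describe the choice and are no finding. Of the 871 members, 752 (86.3%) stood at 41 to 50 tags in every list, 55 (6.31%) stood above 50 tags in every list, and 64 (7.35%) fell on both sides of 50. With pileups scaled for depth, 272 regions met the rule. With tags extended to 50 bases and 1 tag kept per position, 1 strand can give at most 50 tags at a base and both strands 100. Most members therefore lay in the last 10 tags below the most that 1 strand can give. In m6A IP 1, 2 and 3, 48, 49 and 29 members stood at exactly 50 tags and 18, 27 and 7 at exactly 51.

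**Figure D1:**
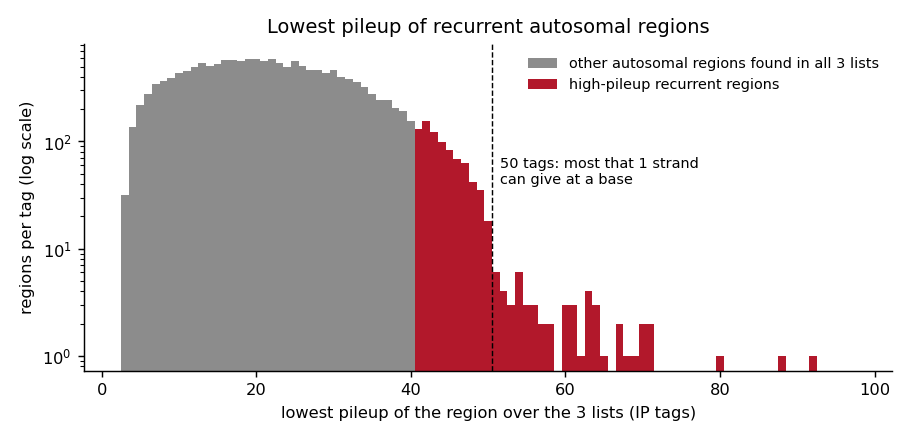
Number of autosomal regions found in all 3 lists (vertical, log scale) at each value of the lowest pileup over the lists (horizontal, IP tags). The 871 members start at 41 tags, and the distribution thins above the dashed line at 50 tags, where 55 members remain.

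At the threshold the regions on either side were close in fold and background. A lowest pileup of exactly 41 tags was found in 132 members, and one of exactly 40 tags in 156 regions just outside. Their median fold, the authors' ratio of IP pileup to local input averaged over the lists, was 3.63 inside and 3.62 outside, their median input background 11.7 and 11.3 tags, and their median length 277 and 254.5 bases. On chromosome 4 from 58499604 to 58499787 the pileup was 41 tags in each list, with folds of 4.47, 4.47 and 3.63 in m6A IP 1, 2 and 3. On chromosome 7 from 112766333 to 112766833 it was also 41 in each list, with folds of 2.71, 4.21 and 3.15. The last such region, on chromosome 17 from 35386574 to 35386728, had folds of 2.71, 2.60 and 2.63. Regions just outside could be taller in the first 2 lists. On chromosome 1 from 93397605 to 93397966 the pileups were 48, 52 and 40 tags and the folds 6.23, 8.03 and 5.72. On chromosome 2 from 25439277 to 25439500 they were 48, 49 and 40 tags, and on chromosome 12 from 8506517 to 8506758 they were 47, 50 and 40. In each of these 3 it was m6A IP 3 that fell short.

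High pileup came with high input and a modest fold. The median fold of members was 3.26, 3.46 and 2.85 in m6A IP 1, 2 and 3, a mean of 3.19 ± 0.313 (SD, n = 3 lists). For the other regions it was 5.35, 5.11 and 4.72, a mean of 5.06 ± 0.315. Members were lower in every list, and the gap was larger than the spread between lists. The local input background behind the tallest peak had a median of 13.7, 12.9 and 15.2 tags in members, a mean of 13.9 ± 1.16 (SD, n = 3 lists), against 3.35, 3.92 and 3.52 tags in the other regions. These medians of the members were above those of the others in every list. Pileup enters the fold and the call of a peak, so these values describe the choice and were not tested. When peaks needed a −log10 q of 10 or more, the members' median fold was 5.43, still 0.660 of that of the other regions.

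Calls by fixed limits gave the same picture. A fold of at least 4 in all 3 lists was reached by 124 of the 871 members, 14.2% (Wilson 95% interval 12.1 to 16.7), where 48.4% of all autosomal regions found in all 3 lists reached it. A fold under 2.5 in all 3 lists was found in 54 members, 6.20% (interval 4.78 to 8.002), against 0.74% of all those regions. By strength of evidence the order turned: a −log10 q of at least 10 in all 3 lists was reached by 158 members, 18.1% (interval 15.7 to 20.8), against 12.3% of all. A larger pileup gives a smaller q at the same fold, and all 3 limits use the contrast that chose the members, so nothing is read from these shares. Intervals cover counting error only.

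The fall of fold with height ran through all the autosomal regions found in all 3 lists, not the members alone. By lowest pileup, the median of the mean fold was 6.25 at up to 10 tags, 5.72 at 11 to 20, 4.72 at 21 to 30 and 4.02 at 31 to 40. Within the members it was 3.34 at 41 to 45 tags and 2.88 at 46 to 50. It did not go on falling above 50 tags, where the 55 members had a median of 3.54. The median input background rose along the same steps, from 0.667 to 2.40, 5.27, 8.59, 12.9 and 16.7 tags, and was 17.1 tags above 50. A short peak needs a high fold to pass the authors' q-value cutoff. The lowest mean fold of any region was 3.35 at up to 10 tags and 1.93 at 31 to 40. The classes were cut by pileup, which also enters the fold and the call of a peak. Nothing is therefore read from the fall of fold or the rise of background, and the part of the cutoff in them was not tested.

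**Figure D2:**
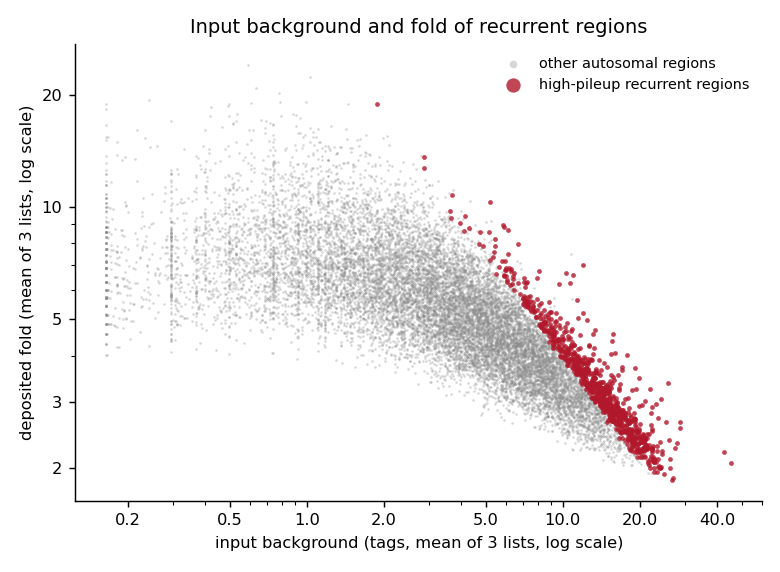
Deposited fold (vertical, mean of 3 lists, log scale) against local input background (horizontal, tags, mean of 3 lists, log scale) for the 871 members in red and the 15477 other autosomal regions in grey, 1 point per region. The members form the upper right edge of the cloud, along which the fold falls as the background rises. For a single peak, fold is pileup plus 1 over background plus 1. Where a list gave more than 1 peak, the fold is the highest of any peak and the background that of the tallest.

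Members were also classed by input level. For a single peak, fold is pileup plus 1 over background plus 1, and the members' pileups lay close together. Their fold therefore had to fall as the background rose, and nothing is read from that fall. Only 13 members (1.49%) had a mean background under 5 tags, where 63.6% of the other regions lay, and their median fold was 9.35. Another 159 members had 5 to 10 tags and a median fold of 5.20, 339 had 10 to 15 tags and a fold of 3.49, and 256 had 15 to 20 tags and a fold of 2.69. At 20 tags or more there were 104 members with a median fold of 2.27, against 4 of the other regions. A peak over so much input has to be tall to pass the authors' q-value cutoff, so this count restates the choice and nothing is read from it. In 85.0%, 85.4% and 84.2% of members in m6A IP 1, 2 and 3 the background came out as whole input tags, within 0.01, as a count at the summit gives. The share was 69.4%, 73.8% and 66.9% in the other regions. For these members the median was 19, 24 and 18 input tags before scaling to the IP.

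With heights so close, the members with the highest fold were, by the arithmetic of the ratio, those with little input. On chromosome 11 from 69182649 to 69182904 the pileups were 51, 42 and 50 tags and the folds 29.5, 13.3 and 14.0, a mean of 18.9 ± 9.16 (SD, n = 3 lists). The fold in m6A IP 1 stood apart from the other 2 while the pileups did not: the background there was 0.763 tags, 1 input tag after scaling, against 2.24 and 2.64 tags. On chromosome 11 from 70467880 to 70468079 the pileups were 49, 56 and 47 and the folds 15.2, 14.99 and 10.6. On chromosome 15 from 98593413 to 98593591 the pileups were 46, 49 and 48, the folds 14.3, 13.2 and 10.8, and the 3 summits lay within 3 bases of each other. These last 2 regions varied less, with mean folds of 13.6 ± 2.59 and 12.8 ± 1.76 that overlap within their SDs.

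The next members in order of mean fold also differed by list. On chromosome 11 from 75401622 to 75401834 the pileups were 44, 50 and 42 and the folds 7.09, 15.7 and 9.51, with m6A IP 2 highest. On chromosome 2 from 143813930 to 143815437, the second longest member at 1508 bases, the pileups were 59, 56 and 48 and the folds 14.4, 5.72 and 10.8, with m6A IP 2 lowest. Its summits were 874 bases apart, so the lists did not place the tallest base at 1 site. On chromosome 17 from 57198972 to 57199217 pileups of 42, 44 and 43 came with folds of 7.71, 11.8 and 9.73. Over 897 bases of chromosome 4, from 133927534 to 133928430, pileups of 46, 48 and 45 came with folds of 9.76, 11.4 and 7.32. Mean folds of these 4 regions, 10.8 ± 4.46, 10.3 ± 4.36, 9.76 ± 2.07 and 9.49 ± 2.04, did not differ beyond their SDs. The last 3 of the 10 were on chromosome 11 from 105783151 to 105783306 (mean fold 9.35 ± 1.23), chromosome 15 from 89595805 to 89596062 (9.09 ± 1.38) and chromosome 10 from 12848534 to 12848887 (8.99 ± 3.18). That region was the tallest of the 10, at 59, 63 and 49 tags.

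**Figure D3:**
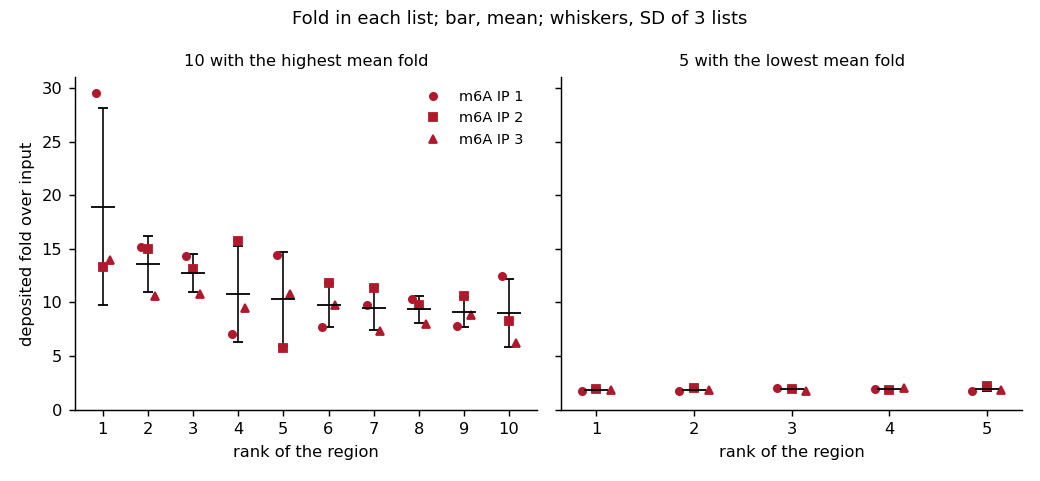
Deposited fold in m6A IP 1 (circles), 2 (squares) and 3 (triangles) for the 10 members with the highest mean fold (left) and the 5 with the lowest (right), in order of rank. Bars are means and whiskers SDs of 3 lists; the top region has 29.5 in m6A IP 1 beside 13.3 and 14.0, and every point on the right lies between 1.73 and 2.23.

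At the other end, members were as tall but stood on a mean input of over 20 tags. The lowest mean fold, 1.85 ± 0.108 (SD, n = 3 lists), was on chromosome 19 from 10057227 to 10057400, with 51, 51 and 49 tags over backgrounds of 29.0, 25.8 and 25.5. On chromosome 11 from 100437953 to 100438183, 49, 54 and 50 tags gave folds of 1.76, 2.05 and 1.80, and on chromosome 14 from 66594528 to 66594627, 49, 49 and 48 tags gave 2.03, 1.95 and 1.79. These folds varied little between lists, and so did those on chromosome 1 from 88423355 to 88423474 (1.95 ± 0.0787) and chromosome 15 from 74579971 to 74580118 (1.95 ± 0.246). Their mean −log10 q was 1.93 to 2.21, near the authors' cutoff, whereas the 10 members above had 24.7 to 45.5. A pileup of about 50 tags thus covered both weak and strong evidence of enrichment. The largest SD of fold outside the regions already named was on chromosome 7 from 127741335 to 127741416, an 82-base region with 45, 44 and 43 tags, whose folds were 14.0, 6.28 and 5.47 over backgrounds of 2.29, 6.16 and 7.04.

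The 55 members above 50 tags in every list lay on all 19 autosomes and need tags from both strands. In m6A IP 1, 2 and 3 their pileup had medians of 63, 65 and 60 tags, and 11 had a mean of 70 or more. Beside the 752 members at 41 to 50 tags they were longer, with a median of 421 against 277 bases. A −log10 q of at least 10 in all 3 lists was reached by 22 of them, 40% (Wilson 95% interval 28.1 to 53.2), against 16.5% (14.0 to 19.3) of the 752 and 12.3% of all the regions. The classes were split by pileup, which enters q, so nothing is read from these shares. The median fold of the 55 stood above that of the 752 in each list, at 3.41 against 3.29, 4.03 against 3.46 and 2.99 against 2.85. The tallest, on chromosome 15 from 25294356 to 25294666, had 95, 96 and 92 tags over 44.3, 36.4 and 47.6 tags of input, and folds of 2.12, 2.59 and 1.92. On chromosome 1 from 174204181 to 174204287 there were 94, 95 and 88 tags over 44.3, 37.5 and 54.6. Both neared 100 tags, the most that the 2 strands can give together. On chromosome 13 from 54480182 to 54480323 there were 85, 87 and 80 tags and folds of 2.33, 4.27 and 3.52. The order of folds was not that of heights: chromosome 15 from 82984348 to 82984655, with 79, 78 and 67 tags, had folds of 3.98, 4.44 and 3.65, above those on chromosome 2 from 132618454 to 132618743 (80, 77 and 70 tags, folds 2.70, 3.18 and 2.06).

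Members were broader than the other regions, at the end of a rise of length with height that ran through all of them. By lowest pileup the median length of a region was 148 bases at up to 10 tags, 166 at 11 to 20, 197 at 21 to 30 and 236 at 31 to 40, and in members 277 at 41 to 45 and 287 at 46 to 50. In m6A IP 1, 2 and 3 the median length of a member's longest peak was 233, 257 and 169 bases, and 144, 141 and 112 bases for the other regions. The medians were larger in every list, with means of 220 ± 45.5 and 132 ± 17.7 bases (SD, n = 3 lists). Merged members ran from 59 to 1707 bases, and 170 of them (19.5%) spanned at least 500 bases, against 4.14% of the other regions. The 871 members covered 295 kb, 8.10% of the bases of the 16348 regions. Each list gave a single peak in 679 members (78.0%), against 86.8% of the others, so the members were more often split. A region's pileup is the highest over its bases and peaks, so a longer or split region has more chances to reach 41 tags. Length and number of peaks were therefore not independent of the choice, and nothing is read from these differences. The longest, on chromosome 7 from 106416106 to 106417812, held 2, 1 and 3 peaks in m6A IP 1, 2 and 3 and 45, 48 and 43 tags. On chromosome 10 from 79593605 to 79594955, 1351 bases, there were again 2, 1 and 3 peaks, with 49, 50 and 49 tags.

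Summits, whose position the choice did not use, recurred at a similar distance in members and others. The tallest bases of the 3 lists spanned a median of 20 bases in members, with quartiles of 6 and 65, and 23 bases in the others, with quartiles of 8 and 62. The share within 50 bases was 70.5% and 70.6%, and the share spanning more than 100 bases 15.8% and 12.8%. The regions nearest in height were tighter than most members: the median span was 20 bases at a lowest pileup of 21 to 30 tags and 16 at 31 to 40, but 20.5 in members at 41 to 45 and 21 at 46 to 50. By length the spans differed: among regions under 200 bases the median span was 10 in 266 members and 17 in 8781 others, at 200 to under 400 bases 24 and 35, and at 400 bases or more 31 and 60. Within each length class the members' median span was thus smaller than that of all others pooled. Members above 50 tags had a median span of 10 bases, although their median length was above that of the 752 members at 41 to 50 tags. Taller peaks rest on more tags, and the part of tag number in this closeness was not tested.

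Heights of members agreed between replicates within a few tags. The median coefficient of variation of the pileup was 3.34% in members and 10.3% in the others. The variance over the 3 lists, divided by the mean, averaged 0.0873 in members and 0.385 in the others. It was above 1 in 2 members and in 8.23% of the others. Independent counts without a ceiling would give 1. Here 1 strand gives at most 50 tags at a base and each pileup is a maximum within called peaks. The value of 1 is therefore no yardstick for either group. The threshold at 41 bounds the members from below, and 752 of the 871 also stood at 50 or less in every list, so within this band their heights had little room to differ. The fold, which the input also enters, varied more, with a median coefficient of variation of 15.6% in members and 20.8% in the others. Spearman's rho of the fold over the 871 members was 0.721, 0.724 and 0.699 between m6A IP 1 and 2, 1 and 3, and 2 and 3. For the 15477 others it was 0.620, 0.592 and 0.606. For the pileup the order was the reverse, 0.718, 0.708 and 0.683 in members and 0.931, 0.934 and 0.924 in the others. Pileups of the others ran from 3 to 51, 52 and 46 tags in m6A IP 1, 2 and 3, and those of members began at 41. With ranges so unlike, nothing is read from this reversal. Regions of 1 library share its depth, and these correlations are descriptions.

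How far high pileup recurred was described by choosing on 2 lists and reading the pileup in the list left out. Every region still had to hold a peak of that list, of any height, so it was not independent of the choice. Of 919 autosomal regions found in all 3 lists with 41 tags or more in m6A IP 2 and 3, 871 also reached 41 in m6A IP 1, 94.8% (Wilson 95% interval 93.1 to 96.04). Chosen on m6A IP 1 and 3, 871 of 906 reached it in m6A IP 2, 96.1% (94.7 to 97.2). Chosen on m6A IP 1 and 2, 871 of 1202 reached it in m6A IP 3, 72.5% (69.9 to 74.9). Over the 3 choices the share was 87.8% ± 13.3 (SD, n = 3 lists). The 871 are the members each time, so the shares differ only by the number chosen and are not separate estimates. Of the regions not chosen, 3.56%, 4.39% and 0.852% reached 41 tags. The median pileup of the chosen regions in the list left out was 46, 46 and 43 tags, a mean of 45 ± 1.73, against 24, 24 and 21 tags for the rest. Among these regions with a peak in the list left out, none of those chosen fell below 30 tags there. When no peak was required in the list left out, the share with a called peak of 41 tags or more there was 94.3%, 96.3% and 57.9%, lowest again for m6A IP 3.

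**Figure D4:**
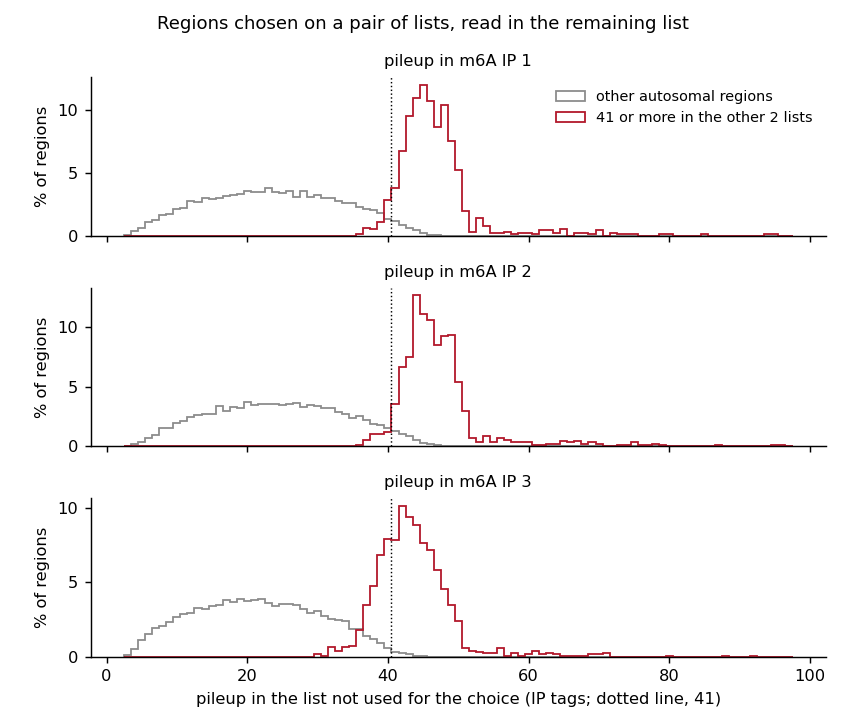
Pileup in the list that was not used for the choice (horizontal, IP tags), as percent of regions per tag, for regions with 41 or more in the other 2 lists (red) and the other autosomal regions found in all 3 lists (grey). The red medians are 46, 46 and 43 tags and the grey ones 24, 24 and 21; in m6A IP 3, 331 of 1202 red regions fall left of the dotted line at 41.

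m6A IP 3 set membership more than the other lists. It alone gave the lowest pileup in 429 members (49.3%), against 133 for m6A IP 1 and 99 for m6A IP 2. Of the 16348 regions, 1421, 1549 and 1000 reached 41 tags in m6A IP 1, 2 and 3. m6A IP 3 was not the shallowest IP library, but its list was the shortest, with 24686 peaks against 32858 and 32671. Without the need for a peak in m6A IP 3, 1504 regions merged from m6A IP 1 and 2 alone had 41 tags or more in both, and 302 of these had no peak in m6A IP 3. Those 302 had the same height, a median of 45.5 tags, but a median fold of 2.42 and a background of 18.5 tags, against 3.56 and 12.4 tags in the 1202 with a peak there. Only 5 of 928 regions chosen on m6A IP 2 and 3 had no peak in m6A IP 1, and 0 of 912 chosen on m6A IP 1 and 3 had none in m6A IP 2. The number of members thus depended on m6A IP 3, and the tall segments missing from it had the higher input. Their pileup in m6A IP 3 is not known, since the lists hold called peaks alone.

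Members had recurrent neighbours about as often as all other regions pooled, and their neighbours were more often members. Another region found in all 3 lists lay within 1000 bases of 328 members, 37.7% (Wilson 95% interval 34.5 to 40.9), where 36.8% of all 16348 regions had one. By lowest pileup the share was 22.9% at up to 10 tags, 36.1% at 11 to 20, 41.2% at 21 to 30 and 40.8% at 31 to 40. In members it was 37.8% at 41 to 45 tags, 35.4% at 46 to 50 and 45.5% above 50. Among the 328 members with a neighbour within 1000 bases, the nearest was itself a member in 117, 35.7% (30.7 to 40.99). For the 5690 others with a neighbour that close it was a member in 225, 3.95% (3.48 to 4.49). Of all 16348 regions, 5.33% were members. The pileup cut that chose the members also scored their neighbours, and 2 members nearest to each other both count. The intervals take regions as independent, which neighbours are not. Most members stood alone all the same: runs with gaps of at most 1000 bases gave 797 runs with a member, of which 543 were a single region and 60 held 2 members or more, 134 members in all. Members in a run with another member were thus a minority. Whether neighbouring members lie on 1 RNA was not tested. Among peaks with a −log10 q of 10 or more, 3.82% of the members had a neighbour within 1000 bases. Neighbours there came from 2009 autosomal regions in place of 16348, and the share of the other regions was not computed.

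The run with the most members, 8 of its 9 regions, spanned 6778 bases on chromosome 2 from 121125984 to 121132761. Its first region had 63, 68 and 55 tags in m6A IP 1, 2 and 3, and the other 7 members stood between 43 and 50 tags in every list. The 1 region outside the rule, from 121127287 to 121127438, had 40, 46 and 45 tags. Mean folds along the run were 2.03 to 2.72 over mean backgrounds of 18.1 to 23.8 tags, so the whole stretch was tall and on deep input. On chromosome 17 from 87054001 to 87055375 all 4 regions of a 1375-base run were members, at 42 to 48 tags and mean folds of 2.92 to 3.67. Of the 6 runs with 3 members, the 3 with the highest mean pileup lay on chromosome 13 from 54480182 to 54481976, which begins with the region of 85, 87 and 80 tags, on chromosome 5 from 137506211 to 137508674 (mean pileups of 47.7 to 54.7) and on chromosome 9 from 56467070 to 56469113 (43.0 to 48.0).

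Members were spread over the autosomes in near proportion to the recurrent regions there. The share of a chromosome's recurrent regions that were members ran from 3.96% on chromosome 18 (20 of 505) to 6.78% on chromosome 2 (92 of 1356), a mean of 5.30% ± 0.863 (SD over 19 autosomes). The Wilson interval held the overall 5.33% in 17 of the 19. Chromosome 2 lay above it, with an interval of 5.56 to 8.25, and chromosome 5 below, at 3.97% (47 of 1183, 3.001 to 5.24). The intervals take regions as independent, but 8 of the 92 members of chromosome 2 lay in 1 run of 6778 bases. Nothing is therefore read from chromosomes 2 and 5. By number, chromosome 2 with 92 members and chromosome 11 with 84 held the most. The X chromosome was outside the choice. Of its 409 recurrent regions 27 would have met the pileup rule, 6.60% (4.58 to 9.43), with a median fold of 3.35 and a background of 14.0 tags. That interval held the autosomal 5.33%, so no difference of X from the autosomes was detectable at this threshold with 409 regions. At 36 tags or more the X share was 15.4% (12.2 to 19.2), an interval above the autosomal 11.7%. At 46 or more it was 1.96% (0.994 to 3.81), an interval that held the autosomal 1.72%. The X intervals also take regions as independent, so no difference of X is read from them.

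**Figure D5:**
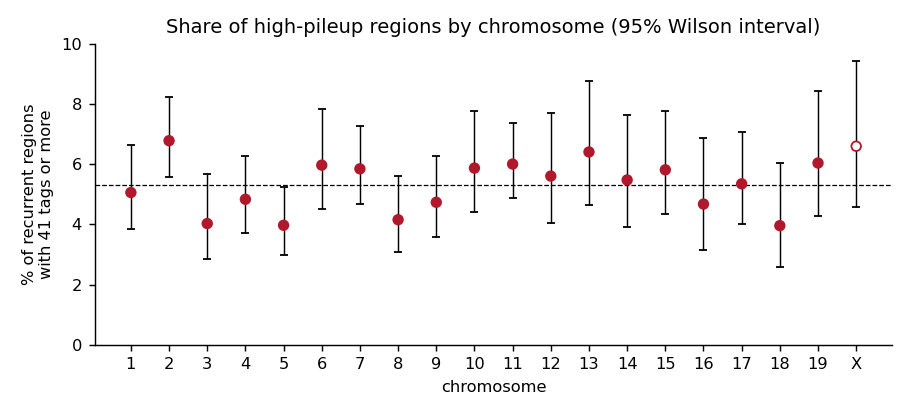
Percent of the regions found in all 3 lists that had 41 tags or more in each (vertical) by chromosome (horizontal), with 95% Wilson intervals; the open circle is X, which was outside the choice. The dashed line is the autosomal 5.33%, and the intervals of chromosomes 2 and 5 do not hold it. The intervals take regions as independent, which neighbouring regions are not.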

How the data were processed

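The data were 3 peak lists, each from 1 IP library and 1 input library of mouse brain. Per the submitters' processing notes, TopHat2 2.1.0 and MACS2 2.1.0 were used on mm9. Per the file headers, MACS 2.1.0.20151222 made each list separately with a q-value cutoff of 0.05 and a tag extension of 50 bases. No source used here states the alignment settings. The pileup is a coverage signal deposited by the authors, in whole IP tags without scaling. The deposited fold is a ratio to the local input background, and the authors gave strength as −log10 of the p-value and of the q-value. Positions and lengths in bases were deposited as other columns.

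The background was recovered as (pileup + 1) / fold − 1, and Poisson p-values computed from it differed from the deposited −log10 p by at most 6.71e-05. A region's pileup, fold, q and length were the highest among its peaks in a list, and its background and summit those of its tallest peak. Merging was tested on simulated lists. Regions were named by rules on fold, pileup, length, SD, the threshold and runs. The members, rules and limits were chosen with earlier results of these data known, and the ratios of members to others were added later. No test was run, since the members were chosen by the readout and regions are not replicates. Motifs, gene lists and gene names were not analysed here, for want of an mm9 genome. Computation used pandas 2.3.3, numpy 2.4.6 and scipy 1.17.1 in Python 3.11.15, and matplotlib 3.10.9.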

Additional observations from a re-analysis of the deposited data

How the results depend on the processing

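The number of members followed the threshold: 1914 at 36 tags or more and 281 at 46 or more, against 871. With pileups scaled for depth, which moved the cuts to 41, 47 and 46 tags, it was 272, and 157 when peaks needed a −log10 q of 10 or more. Leaving out 1 list gave 912 to 1504. The members' median background was 11.8 tags at 36 or more, 16.7 at 46 or more, 16.6 scaled for depth and 7.89 at the stricter q, where the median fold was 5.43 and the median length 298 bases. The X share was 15.4%, 1.96%, 1.71% and 18.8% in the same order, and 4.50% without pileups over 50, where the autosomal share was 11.7%, 1.72%, 1.66%, 7.81% and 4.63%. The Wilson interval of the X share held the autosomal share except at 36 tags (12.2 to 19.2) and at the stricter q (10.2 to 31.9, 9 of 48 regions). These intervals take regions as independent, so nothing is read from the exceptions.

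Under each alternative of threshold, depth scaling, q, overlap and ceiling, and without each list, members kept a lower fold than the other regions. Their background was higher and their length greater each time. Each alternative still chose by pileup, so nothing is read from these directions. The other regions were not recomputed for the other 2 definitions of fold. The ratio of the median folds was 0.617, and 0.661 at 36 tags, 0.573 at 46 and 0.660 at the stricter q. That of the backgrounds was 3.80, and 2.79 at the stricter q. The share with a neighbour was 3.82% at the stricter q, where 2009 autosomal regions were left to be neighbours. It was 26.3% with a reciprocal overlap of 50%, where 10862 were left. For distances of 500 and 5000 bases the share was 29.0% and 55.3%. Without 1 list it was 40.5% to 47.6%. The variation of the fold was 10.8% to 15.2% without 1 list, taken over 2 lists in place of 3 and so not comparable with the main value. The summit span was 17 bases at 36 tags, 19 at 46 and by the same share of regions per list, 18 scaled for depth and with reciprocal overlap, 12 at the stricter q, and 21 without pileups over 50. It was 7 to 10 bases without 1 list, a span of 2 summits in place of 3. The cause of these shifts was not tested. No paired analysis was possible because each list already joins 1 IP to 1 input and no second condition exists.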
